A study of Mus musculus with 32 samples.

Results

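The 10 genes described here encode RNA-binding proteins that act on mRNAs in germ cells before and during meiotic prophase: Meioc, Ythdc2, Dazl, Boll, Dnd1, Nanos3, Cpeb1, Elavl2, Ybx2 and Msi1. They were chosen by symbol, matched to Ensembl identifiers through GENCODE, and all 10 were found among the 20368 genes of the juvenile gene table and in the adult table. Germ cells came from male C57BL/6J mice with no genetic change or treatment, each sample from the combined testes of 1 mouse. There were 3 mice at 8 days post-partum (dpp) and 5 at each of 10, 12, 14, 16 and 18 dpp (28 mice). The study sampled 5 mice at 8 dpp and omitted those in poor concordance with others of that age, likely for want of cells. The spread at 8 dpp is thus that of mice kept partly for their agreement. A further 4 samples were adult germ cells enriched for pachytene and diplotene spermatocytes by sedimentation at unit gravity (STA-PUT). Each was pooled from several mice of 9 weeks, and they are called adult enriched pachytene spermatocytes below. Poly-A RNA was sequenced and levels are given as TPM, a measure of transcript abundance that is scaled for transcript length, so that levels of different genes can be set side by side. Each juvenile sample is a mixture of germ cells at several stages, and RNA of somatic marker genes was also measured in it, as described below. In such bulk samples fewer cells of a type cannot be told apart from less RNA per cell.

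In the first wave of spermatogenesis spermatogonia leave the mitotic cycle, enter meiosis and move through leptonema, zygonema, pachynema and diplonema. Much of this control acts after transcription: MEIOC and the RNA helicase YTHDC2 bind each other and are needed for germ cells to leave the mitotic cell cycle program, DAZL and BOLL are related proteins of the DAZ family, of which DAZL promotes translation, and YBX2 (MSY2) stores and stabilizes mRNAs for later use. NANOS3 and DND1 are needed for the survival of early germ cells, CPEB1 governs polyadenylation and translation, ELAVL2 belongs to a family that binds AU-rich RNA, and MSI1 (Musashi 1) is a translational regulator.

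The promoters of the 3 genes with the largest rise, Meioc, Boll and Ybx2, are shown with that of Dazl, the relative of Boll that did not pass the test between 8 and 18 dpp. Each is 300 bases from RefSeq on GRCm38.p6, running from 250 bases before a transcription start to 50 bases from it, on the strand of the gene, and capitals mark matches on either strand to 4 motifs: the MYB core CNGTTA, the RFX core GTTGCC, the cyclic AMP response element TGACGTNA and the inverted CCAAT box ATTGG. The windows lie at chr11:102665335-102665634 (Meioc, plus strand), chr1:55362679-55362978 (Boll, minus strand), chr11:69935649-69935948 (Ybx2, plus strand) and chr17:50293571-50293870 (Dazl, minus strand).
Meioc: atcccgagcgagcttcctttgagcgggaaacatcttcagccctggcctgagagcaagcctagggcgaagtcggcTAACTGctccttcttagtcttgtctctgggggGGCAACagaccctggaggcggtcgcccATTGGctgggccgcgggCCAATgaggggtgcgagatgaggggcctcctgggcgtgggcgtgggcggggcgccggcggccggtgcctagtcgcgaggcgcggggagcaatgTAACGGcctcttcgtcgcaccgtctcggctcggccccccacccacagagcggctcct
Boll: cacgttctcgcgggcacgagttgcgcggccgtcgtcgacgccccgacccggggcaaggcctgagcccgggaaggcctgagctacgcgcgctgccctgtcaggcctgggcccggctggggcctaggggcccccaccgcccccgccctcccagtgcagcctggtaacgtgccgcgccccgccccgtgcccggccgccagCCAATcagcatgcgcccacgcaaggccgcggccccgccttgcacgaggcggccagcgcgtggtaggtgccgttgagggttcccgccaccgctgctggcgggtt
Ybx2: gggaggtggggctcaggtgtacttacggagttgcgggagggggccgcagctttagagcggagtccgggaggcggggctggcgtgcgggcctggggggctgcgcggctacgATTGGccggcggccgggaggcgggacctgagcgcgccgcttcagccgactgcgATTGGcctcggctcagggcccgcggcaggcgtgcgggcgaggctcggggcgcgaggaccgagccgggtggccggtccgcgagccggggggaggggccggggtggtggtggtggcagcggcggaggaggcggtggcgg
Dazl: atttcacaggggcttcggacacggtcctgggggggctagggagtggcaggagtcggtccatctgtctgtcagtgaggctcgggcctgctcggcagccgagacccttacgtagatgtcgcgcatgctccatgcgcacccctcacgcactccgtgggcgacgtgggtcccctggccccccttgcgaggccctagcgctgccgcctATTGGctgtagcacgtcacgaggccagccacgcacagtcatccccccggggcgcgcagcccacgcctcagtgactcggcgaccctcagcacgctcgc

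The Meioc window held 2 matches to the MYB core, 1 to the RFX core and 2 to the inverted CCAAT box. The Ybx2 window held 2 matches to the inverted CCAAT box, and those of Boll and Dazl held 1 each. No match overlapped another. Of 32851 RefSeq windows of the same length, 23.3% held the MYB core, 12.5% the RFX core, 2.93% the cyclic AMP response element and 37.4% the inverted CCAAT box. The shown Boll window covers the start of the transcript ENSMUST00000114423, and the shown Ybx2 window those of ENSMUST00000018698 and ENSMUST00000149194; of the 2 windows listed for each gene these were chosen with the transcript results known.

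All 10 are protein-coding genes. On the GRCm38 assembly Meioc (chr11:102663716-102682237, plus strand), Ythdc2 (chr18:44827746-44889724, plus strand), Dazl (chr17:50279395-50293636, minus strand) and Ybx2 (chr11:69935796-69941605, plus strand) overlap no other annotated gene. Boll (chr1:55248658-55363469, minus strand), Dnd1 (chr18:36763671-36766214, minus strand), Cpeb1 (chr7:81347026-81455465, minus strand), Elavl2 (chr4:91250763-91400785, minus strand) and Msi1 (chr5:115429599-115455698, plus strand) each overlap an annotated gene on the opposite strand, Wdr55 in the case of Dnd1. Nanos3 (chr8:84173731-84185217, minus strand) holds Mir181c and Mir181d on its own strand, and Elavl2 holds Mir6402 on its own strand. No strand-specific library protocol is named, so reads of such overlapping pairs cannot be assigned by strand.

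Between 8 and 18 dpp the 10 genes parted. Ybx2, Boll, Meioc and Ythdc2 rose, Dnd1, Msi1 and Elavl2 fell, and Dazl, Cpeb1 and Nanos3 did not pass the test. Ages were compared with limma on log2(TPM + 1) over all 20368 genes, with Benjamini-Hochberg adjusted p-values under 0.05 called. Thus 4 of 10 rose and 3 of 10 fell, where 31.8% of all genes rose and 36.3% fell, so the number called is close to that of genes at large. The median log2 fold change of the 10 was 0.05, and that of all genes -0.09. A test for any difference among the 6 ages called 9 of the 10 genes, all but Nanos3 (adjusted p = 0.238), beside 77.6% of all genes.

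**Figure D1:**
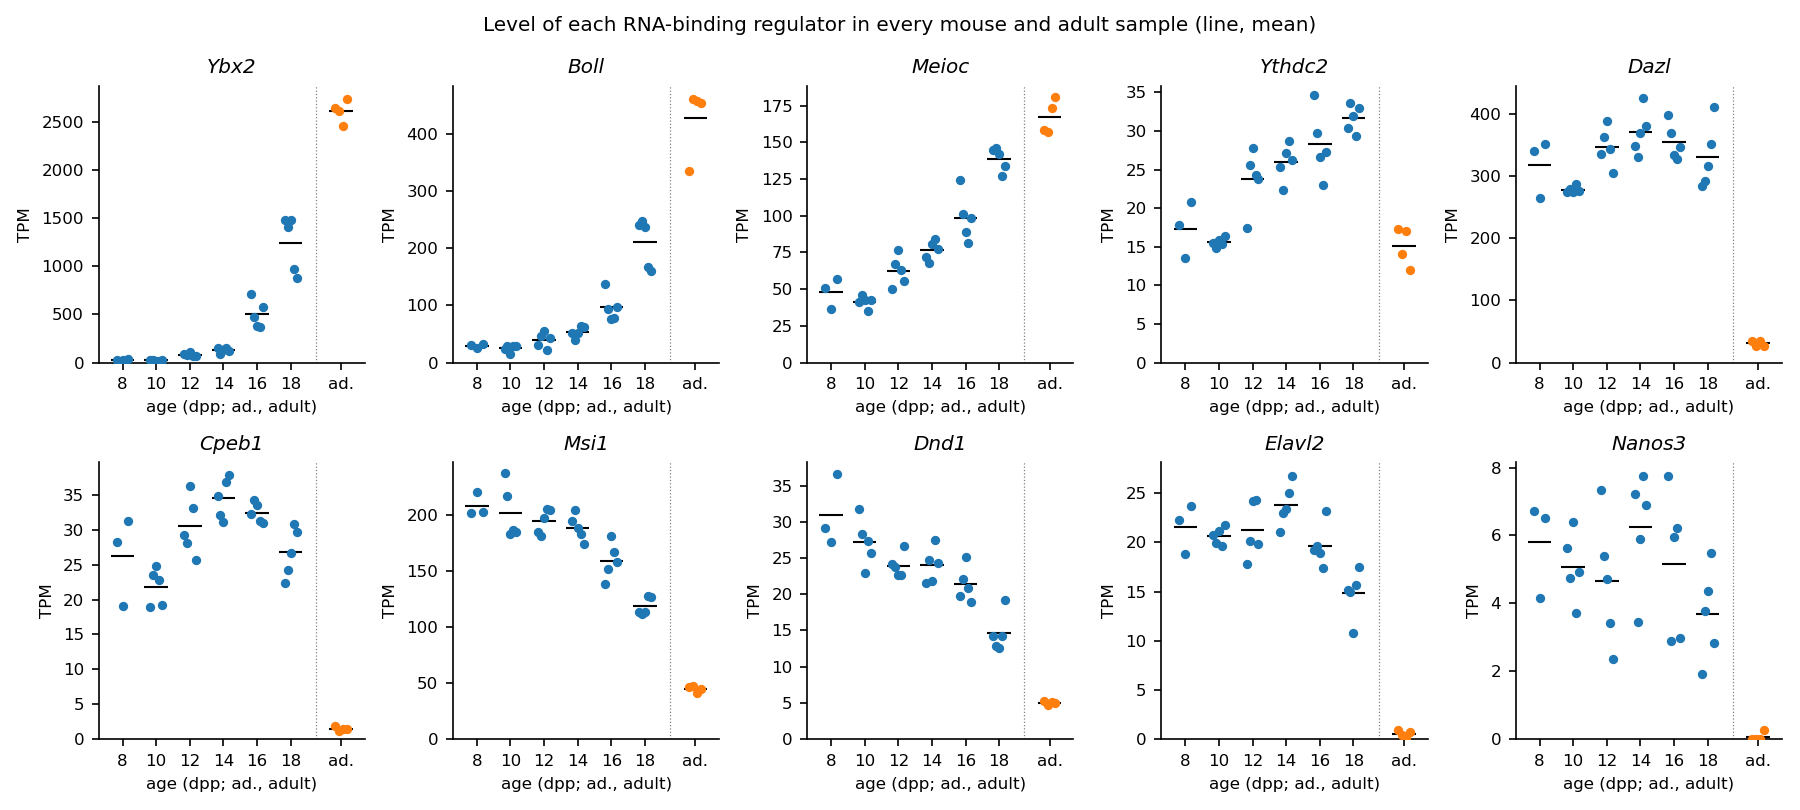
TPM of the 10 RNA-binding regulators against age in days post-partum, with adult enriched pachytene spermatocytes (ad.) to the right of the dotted line; each point is 1 sample and each line a mean, and every vertical axis starts at 0. Ybx2 climbs from 24.9 to 34.5 TPM at 8 dpp to between 874 and 1483 at 18 dpp, while Dazl stays between 265 and 425 TPM in all juvenile mice and lies between 26.4 and 35.4 in the adult samples.

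Ybx2 had the widest range. It measured 28.8, 24.9 and 34.5 TPM in the 3 mice at 8 dpp and 16.9 to 28.5 TPM at 10 dpp. It then reached 64.4 to 111 TPM at 12 dpp and 92.3 to 151 TPM at 14 dpp. At 16 dpp the 5 mice held 713, 475, 379, 371 and 581 TPM, and at 18 dpp 1479.7, 1408, 1483, 972 and 874 TPM. No mouse at 18 dpp overlapped any at 16 dpp, and none at 16 dpp overlapped any at 14 dpp. From 8 to 18 dpp Ybx2 rose 40.3-fold on the scale of TPM + 1 (log2 fold change 5.33, SE 0.218, limma adjusted p = 8.8e-17). It stood at the mean percentile of 59.7 among 15023 Ensembl genes at 8 dpp and at 99.7 at 18 dpp. Mice 4 and 5 of 18 dpp lay below mice 1 to 3 in Ybx2. Among mice 1 to 3 of each age alone the log2 fold change was 5.595.

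Boll, the ancestral member of the DAZ family, measured 30.7, 25.7 and 32.9 TPM at 8 dpp and 14.8 to 29.4 TPM at 10 dpp. It ran from 21.3 to 55.4 TPM at 12 dpp, 39.7 to 63.9 at 14 dpp and 75.7 to 138 at 16 dpp. At 18 dpp it measured 241, 248, 237, 168 and 160.2 TPM. The mice of 14, 16 and 18 dpp did not overlap, whereas those from 8 to 14 dpp overlapped from each age to the next. Boll rose 6.80-fold from 8 to 18 dpp (log2 fold change 2.76, SE 0.248, limma adjusted p = 1.74e-10). As with Ybx2, mice 4 and 5 of 18 dpp were the lowest of their age.

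Meioc measured 50.6, 36.8 and 56.8 TPM at 8 dpp and 35.2 to 45.7 TPM at 10 dpp. It rose to 50.0 to 76.8 TPM at 12 dpp, 67.9 to 84.1 at 14 dpp, 81.7 to 124 at 16 dpp and 145, 146, 142, 127 and 134 TPM at 18 dpp. All mice of 18 dpp were above all of 16 dpp. The rise from 8 to 18 dpp was 2.89-fold (log2 fold change 1.53, SE 0.131, limma adjusted p = 6.8e-11).

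Ythdc2, whose protein pairs with MEIOC, started lower, at 17.8, 13.5 and 20.8 TPM at 8 dpp, and measured 14.9 to 16.4 TPM at 10 dpp. It lay between 17.4 and 27.8 TPM at 12 dpp, between 22.3 and 28.7 at 14 dpp, between 23.0 and 34.7 at 16 dpp, and at 30.4, 33.6, 31.9, 29.4 and 33.0 TPM at 18 dpp. Its mice at 12 dpp were all above those of 10 dpp, and from 12 dpp on each age overlapped the next. The rise from 8 to 18 dpp was 1.80-fold (log2 fold change 0.85, SE 0.128, limma adjusted p = 1.56e-06).

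Msi1 and Dnd1 had the largest falls among the genes called. Msi1 measured 202, 220.2 and 203 TPM at 8 dpp, 183 to 237 at 10 dpp, 181 to 205 at 12 dpp and 174 to 204 at 14 dpp. It measured 138 to 181 TPM at 16 dpp and 113, 112, 113, 128 and 127 TPM at 18 dpp, below every mouse of 16 dpp. The fitted level at 18 dpp was 0.569 of that at 8 dpp (log2 fold change -0.81, SE 0.0842, limma adjusted p = 2.53e-09).

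Dnd1 measured 29.1, 27.2 and 36.6 TPM at 8 dpp and 23.0 to 31.8 TPM at 10 dpp. It ran from 22.6 to 26.6 TPM at 12 dpp, 21.6 to 27.5 at 14 dpp and 18.9 to 25.2 at 16 dpp, and it stood at 14.2, 12.9, 12.6, 14.3 and 19.2 TPM at 18 dpp. The highest mouse of 18 dpp overlapped the lowest of 16 dpp, and no mouse of 18 dpp reached the level of 8 dpp. The fitted level at 18 dpp was 0.487 of that at 8 dpp (log2 fold change -1.04, SE 0.122, limma adjusted p = 2.36e-08).

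Elavl2 measured 22.3, 18.8 and 23.7 TPM at 8 dpp and stayed between 17.4 and 26.8 TPM from 10 to 16 dpp. At 18 dpp it measured 15.2, 15.0, 10.8, 15.7 and 17.5 TPM, all below 8 dpp. The log2 fold change from 8 to 18 dpp was -0.52 (SE 0.119, limma adjusted p = 0.000377).

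Dazl was the most abundant of the 10 genes at 8 dpp, with 339.9, 265 and 351 TPM. It measured 274 to 287 TPM at 10 dpp, 305 to 388 at 12 dpp, 331 to 425 at 14 dpp and 327 to 399 at 16 dpp. At 18 dpp it measured 284, 292, 317, 352 and 411 TPM, a range that holds 2 of the 3 values of 8 dpp. The log2 fold change from 8 to 18 dpp was 0.05 (SE 0.104, limma adjusted p = 0.668), and with median-of-ratios scaling Dazl was called higher (0.229, limma adjusted p = 0.0294). Its mean percentile was 97.5 at both 8 and 18 dpp.

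Cpeb1 followed an arch. It measured 28.3, 19.0 and 31.2 TPM at 8 dpp, 18.9 to 24.8 at 10 dpp, 25.7 to 36.3 at 12 dpp and 31.1 to 37.8 at 14 dpp. It measured 30.9 to 34.2 TPM at 16 dpp and 22.4, 24.2, 26.7, 30.8 and 29.7 TPM at 18 dpp. The log2 fold change from 8 to 18 dpp was 0.05 (SE 0.129, limma adjusted p = 0.738), and the direction of this value and of that of Dazl turned without mouse 2 of 8 dpp, to -0.155 and -0.075.

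Nanos3 was the least abundant at every juvenile age. It measured 6.71, 4.16 and 6.52 TPM at 8 dpp and lay between 2.36 and 7.76 TPM from 10 to 16 dpp. At 18 dpp it measured 1.93, 3.78, 4.36, 5.47 and 2.82 TPM. The log2 fold change was -0.57 with an SE of 0.295 (limma adjusted p = 0.0894), the largest error of the 10 genes.

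The order of the genes changed accordingly. At 8 dpp Dazl was first (319 ± 47.0 TPM, SD, n = 3), followed by Msi1 (208 ± 10.2) and Meioc (48.1 ± 10.2), none of them overlapping its neighbour. Dnd1, Boll, Ybx2, Cpeb1, Elavl2 and Ythdc2 followed between 31.0 and 17.4 TPM, each overlapping the next. At 18 dpp Ybx2 was first (1244 ± 296 TPM, SD, n = 5), then Dazl (331 ± 51.8), Boll (211 ± 42.8), Meioc (139 ± 7.94) and Msi1 (118 ± 8.12). Of these only Meioc and Msi1 overlapped. Ythdc2 and Cpeb1 overlapped below them, as did Elavl2 and Dnd1, and Nanos3 was last at both ages.

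The changes fell into steps. From 8 to 10 dpp limma called 0 of the 10 genes, with 0 also at an unadjusted p under 0.05, while 0.977% of all genes rose and 0.226% fell. From 10 to 12 dpp 5 of the 10 rose and 0 fell, beside 12% and 9.39% of all genes. These were Ybx2 (log2 fold change 1.78, limma adjusted p = 1.08e-07), Meioc (0.57, adjusted p = 0.000536), Ythdc2 (0.56, adjusted p = 0.000496), Cpeb1 (0.46, adjusted p = 0.00353) and Dazl (0.31, adjusted p = 0.0127). Every mouse of 12 dpp was above every mouse of 10 dpp in these 5 genes, and the share of all genes without such overlap was not counted. Boll had a log2 fold change of 0.59 and did not pass (limma adjusted p = 0.051).

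From 12 to 14 dpp limma called 0 of the 10 genes, while 0.157% of all genes were called higher and 0.0147% lower. At an unadjusted p under 0.05 there were 3 of the 10 (Meioc, Boll and Ybx2). The share of all genes at that unadjusted limit is not given, so the 3 cannot be set against genes at large. From 14 to 16 dpp 3 rose and 1 fell, beside 12.7% and 11.3% of all genes. The risers were Ybx2 (log2 fold change 1.94, limma adjusted p = 1.51e-08), Boll (0.82, adjusted p = 0.00623) and Meioc (0.35, adjusted p = 0.0243), and the gene that fell was Msi1 (-0.25, adjusted p = 0.013). Without mouse 1 of 16 dpp, which held the highest Ybx2, Boll and Meioc of its age, the calls of Meioc and Msi1 were lost and 2 genes, Ybx2 and Boll, were called. The call of Meioc was also lost without mouse 1 or mouse 2 of 14 dpp and with every gene above 0 TPM tested.

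From 16 to 18 dpp 3 of the 10 genes rose and 4 fell, beside 23.4% and 30.6% of all genes. Ybx2 (log2 fold change 1.31, limma adjusted p = 4.57e-06), Boll (1.12, adjusted p = 0.000106) and Meioc (0.50, adjusted p = 0.000591) rose again. Dnd1 (-0.52, adjusted p = 0.000176), Msi1 (-0.42, adjusted p = 3.61e-05), Elavl2 (-0.39, adjusted p = 0.00242) and Cpeb1 (-0.28, adjusted p = 0.0401) fell. The call of Cpeb1 was lost in 9 of 37 alternative settings, among them without mouse 1, 2, 3 or 4 of 16 dpp and without mouse 1, 2 or 3 of 18 dpp. Barcodes of the libraries of 8 to 12 dpp recur among those of 14 to 18 dpp, which shows more than 1 sequencing pool. If the pools followed these age ranges, the step from 12 to 14 dpp, the comparison of 8 with 18 dpp and the early against late comparison of transcripts would all lie across them, and pool and age cannot be told apart there.

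**Figure D2:**
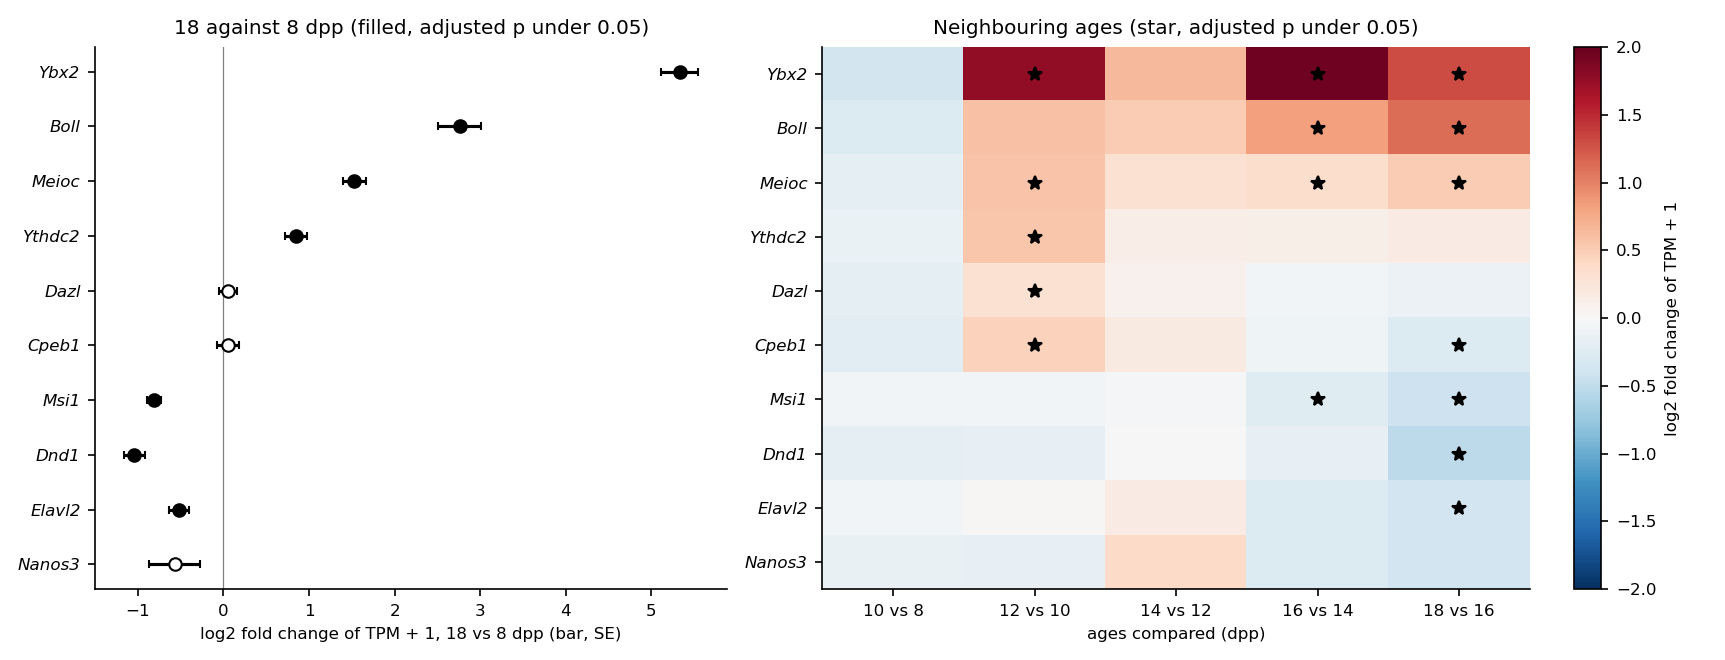
Left, log2 fold change of TPM + 1 from 8 to 18 dpp for each gene with its standard error, filled where the limma adjusted p is under 0.05; right, the log2 fold change between neighbouring ages as colour, with a star where called. Stars gather at 12 against 10 dpp, all higher, and at 16 and 18 dpp, where Ybx2, Boll and Meioc are higher and Msi1 is lower in both steps.

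In adult enriched pachytene spermatocytes the same 10 genes spanned a wider range than in any juvenile group. The adult and juvenile tables were made separately, so the levels are set side by side without a test. Ybx2 measured 2639.6, 2606, 2456 and 2734 TPM, and Boll 336, 462, 458 and 455 TPM. Meioc measured 158, 157, 173 and 181 TPM. In these 3 genes every adult value was above every value of 18 dpp. How many of all genes separate in this way was not counted.

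Ythdc2, at 17.3, 14.1, 17 and 12.0 TPM, was below every mouse of 18 dpp, with a ratio of means of 0.477. Msi1 measured 40.8 to 47.0 TPM and Dnd1 4.70 to 5.31 TPM, with ratios of 0.377 and 0.342 to the mean of 18 dpp. Dazl measured 34.3, 27.4, 35.4 and 26.4 TPM, a ratio of 0.0933. Cpeb1 (1.16 to 1.82 TPM) and Elavl2 (0.11 to 0.89 TPM) had ratios of 0.0555 and 0.0369. Nanos3 was listed at 0 in 3 adult samples and at 0.28 TPM in the other.

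Several of the 10 genes have close relatives, and the share of each in the summed TPM of its family was computed within every sample. Boll made up 8.57% ± 0.282 (SD, n = 3) of the DAZ family sum of Dazl and Boll at 8 dpp, 12.6% ± 1.29 (n = 5) at 14 dpp, 21.2% ± 2.84 at 16 dpp and 39.0% ± 8.27 at 18 dpp. In the adult samples it made up 93.1% ± 1.77 (n = 4). Dazl was thus the larger component in every juvenile mouse, and Boll in every adult sample.

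The Y-box proteins bind DNA and mRNA through a cold shock domain. Ybx2 made up 5.77% ± 1.11 (SD, n = 3) of the sum of Ybx1, Ybx2 and Ybx3 at 8 dpp, 34.8% ± 2.63 (n = 5) at 16 dpp, 38.7% ± 0.777 at 18 dpp and 38.6% ± 0.536 (n = 4) in the adult samples. Ybx3 rose from 93.8 ± 1.17 TPM at 8 dpp to 915 ± 247 TPM at 18 dpp (log2 fold change 3.23, limma adjusted p = 1.24e-14), and Ybx1 from 388 ± 24.4 to 1046 ± 181 TPM (1.41, adjusted p = 2.3e-12). All 3 genes of the family rose. Their sequences are alike, and reads that match several of them were divided by RSEM.

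Within the CPEB family Cpeb1 stood above Cpeb2 at 8 dpp and below it at 18 dpp. Cpeb1 made up 34.9% ± 5.07 (SD, n = 3) of the sum of Cpeb1 to Cpeb4 at 8 dpp, 42.1% ± 2.49 (n = 5) at 14 dpp, 25.7% ± 5.19 at 18 dpp and 1.08% ± 0.185 (n = 4) in the adult samples. Cpeb2 rose from 17.5 ± 0.217 to 46.4 ± 8.08 TPM (log2 fold change 1.34, limma adjusted p = 4.67e-09) and measured 92.0 to 104 TPM in the adult samples.

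Elavl2 made up 30.8% ± 2.24 (SD, n = 3) of the ELAV family sum at 8 dpp, 20.8% ± 2.53 (n = 5) at 18 dpp and 1.64% ± 1.00 (n = 4) in the adult samples, where the widely expressed Elavl1 accounted for 96.9% ± 1.11. Elavl3 rose from 1.71 to 4.79 TPM (log2 fold change 1.11, limma adjusted p = 1.43e-07). Msi1 made up 70.4% ± 1.56 of the Musashi sum at 8 dpp and 78.0% ± 0.872 at 18 dpp, since Msi2 also fell (log2 fold change -1.37, limma adjusted p = 8.9e-15). Ythdc2 made up 6.05% ± 1.14 of the sum of 5 YTH genes at 8 dpp and 11.9% ± 0.65 at 18 dpp. Of the readers of N6-methyladenosine, Ythdf1 fell from 119 to 79.0 TPM (log2 fold change -0.59, limma adjusted p = 1.5e-07) and measured 7.32 to 11 TPM in the adult samples. Ythdf3 also fell (-0.6, adjusted p = 1.88e-07). Ythdf2 (0.31, adjusted p = 0.00894) and Ythdc1 (0.18, adjusted p = 0.0204) rose, the latter not called with quantile scaling.

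**Figure D3:**
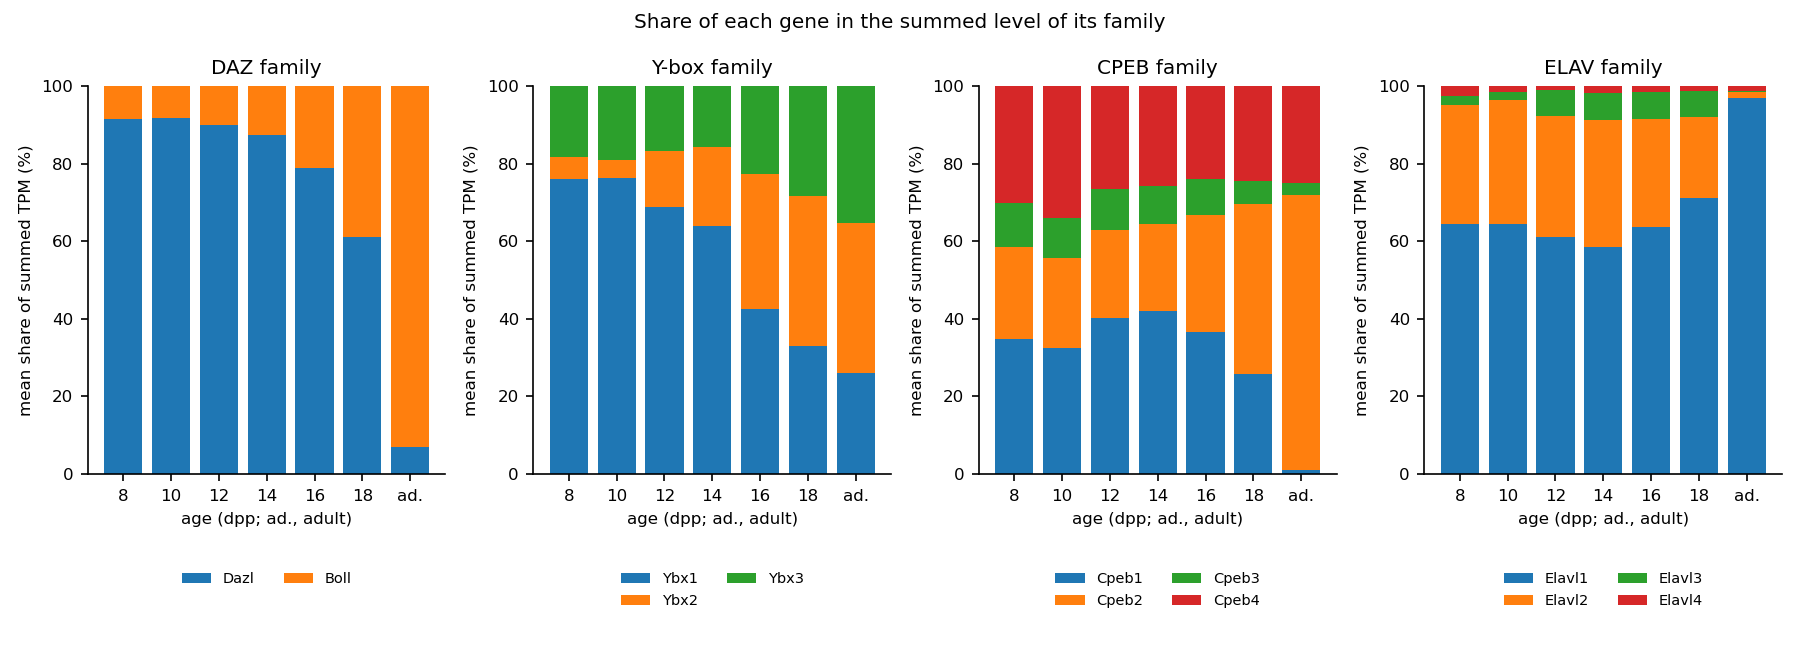
Mean share of each gene in the summed TPM of its family (stacked bars, %) at each juvenile age and in the adult samples (ad.), for the DAZ, Y-box, CPEB and ELAV families. Boll grows from 8.57% of the DAZ sum at 8 dpp to 93.1% in the adult samples, and Cpeb1 and Elavl2 shrink to 1.08% and 1.64% of their families there.

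Of 15 paralogs of the 10 genes, 13 were above the filter. From 8 to 18 dpp 7 rose, 5 fell and 1 (Cpeb4) was not called, with a median log2 fold change of 0.18. Of all genes 31.8% rose and 36.3% fell. With quantile scaling 5 paralogs rose and 5 fell, and with median-of-ratios scaling 8 rose and 4 fell. Nanos2 and Elavl4 were below the filter. Nanos1 fell with a log2 fold change of -0.85 (limma adjusted p = 9.03e-06).

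Partners and machinery were listed as proteins that bind the 10 gene products or carry out the RNA decay, polyadenylation and N6-methyladenosine steps they act on. Of 15 genes 6 rose and 8 fell, beside 31.8% and 36.3% of all genes, with a median log2 fold change of -0.25. With median-of-ratios scaling 3 in place of 8 fell, and no called gene of the list changed direction. Pabpc1, the poly(A)-binding protein that DAZL recruits, rose from 441 ± 8.06 TPM (SD, n = 3) to 1565 ± 261 TPM (n = 5; log2 fold change 1.81, limma adjusted p = 6.72e-14). Rbm46, whose protein binds MEIOC and YTHDC2, rose from 32.5 to 71.5 TPM (1.12, adjusted p = 2.27e-10). Xrn1, the exonuclease that binds YTHDC2, fell from 18.5 to 9.34 TPM (-0.92, adjusted p = 4.96e-08).

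Of 7 mRNAs reported as targets of these proteins, 5 were above the filter. Among these 3 rose and 2 fell, beside 31.8% and 36.3% of all genes, with a median log2 fold change of 1.57. Sycp3 (log2 fold change 1.90), Sycp1 (1.57) and Ddx4 (1.59), which encode synaptonemal complex proteins and the germ cell helicase VASA and are targets of DAZL, rose. Ddx4 is also counted among the partners above, and Sycp1 and Sycp3 among the markers of prophase spermatocytes below. Their rises are therefore not separate results of those lists. Ccna2 (-0.93, limma adjusted p = 1.92e-07), the cyclin mRNA bound by MEIOC and YTHDC2, and Tex19.1 (-0.55, adjusted p = 2.37e-05) fell. Prm1 and Prm2, mRNAs that YBX2 stores in spermatids, were below the filter in juvenile mice and measured 184 to 236 TPM and 237 to 299 TPM in the adult samples.

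For each gene whose age means spanned at least 1 on the log2 scale, the 3 genes with the most similar course were found from the root mean square difference of the 6 centred age means, among 14895 genes. For Meioc these were Terb2 (0.0456), Urb2 (0.0599) and Sltm (0.0665). For Boll they were B9d1 (0.0879), Saxo2 (0.094) and Pex11g (0.102), for Dnd1 Nsmf (0.021), Trip10 (0.0286) and Rpl27 (0.0307), and for Ybx2 Clgn (0.0919), Rnf32 (0.158) and Stk33 (0.174). Terb2 encodes a protein that attaches telomeres to the nuclear envelope in meiosis, and Clgn a chaperone of the testis.

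The share of each transcript in its gene's TPM was compared with limma between early and late mice. These were the 8 mice of the first 2 ages (8 and 10 dpp) and the 10 of the last 2 (16 and 18 dpp). The comparison covered 31 transcripts of 7 of the genes. For Ythdc2, Dazl and Nanos3 only 1 transcript each was quantified, although GENCODE lists 4, 6 and 3, so their usage could not be compared. A change of at least 20 percentage points with an adjusted p under 0.05 was found in 1 of the 31, beside 2.39% of 26341 transcripts. This was ENSMUST00000018698, the longest coding transcript of Ybx2, which rose from 33.2% ± 12.6 (SD, n = 8) to 56.0% ± 5.37 (n = 10) of Ybx2 TPM, with a difference of 24.0 points between the mean of the ages (SE 3.74, limma adjusted p = 5.07e-05). In the 8 early mice it ranged from 18.2% to 48.6% and in the 10 late mice from 50.0% to 68.7%, with no overlap, although the early shares rest on a transcript level of 8.08 TPM. The coding transcript ENSMUST00000149194 of Ybx2 held 42.4% early and 37.8% late (limma adjusted p = 0.583). Of those annotated as retained introns, ENSMUST00000148395 went from 10.1% to 0.133% (adjusted p = 0.0067) and ENSMUST00000130377 from 9.88% to 2.24% (adjusted p = 0.159). Early they averaged only 2.54 and 2.56 TPM.

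In Boll the transcript ENSMUST00000114423 held 29.6% ± 14.7 (SD, n = 8) of the TPM early and 45.3% ± 5.37 (n = 10) late, a difference of 13.4 points (SE 4.57, limma adjusted p = 0.0447) that is under the limit of 20. The low early value came from 10 dpp, where the 5 mice ranged from 0 to 38.04%, whereas the 3 mice of 8 dpp, at 43.21, 36.85 and 42.01%, lay within the 34.83 to 47.8% of 16 dpp. The 2 tested transcripts that start further upstream, ENSMUST00000087585 and ENSMUST00000159398, fell by 12.6 points (limma adjusted p = 0.0164) and 11.9 points (adjusted p = 0.0063). Both are also under that limit. ENSMUST00000087585 held 5.15% ± 6.91 at 8 dpp and 21.2% ± 8.88 at 10 dpp, so its early value came mainly from 10 dpp. ENSMUST00000159398 held 24.1% and 25.0% at these ages. ENSMUST00000114423 was listed at 0 in 1 mouse of 10 dpp and 1 of 12 dpp.

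**Figure D4:**
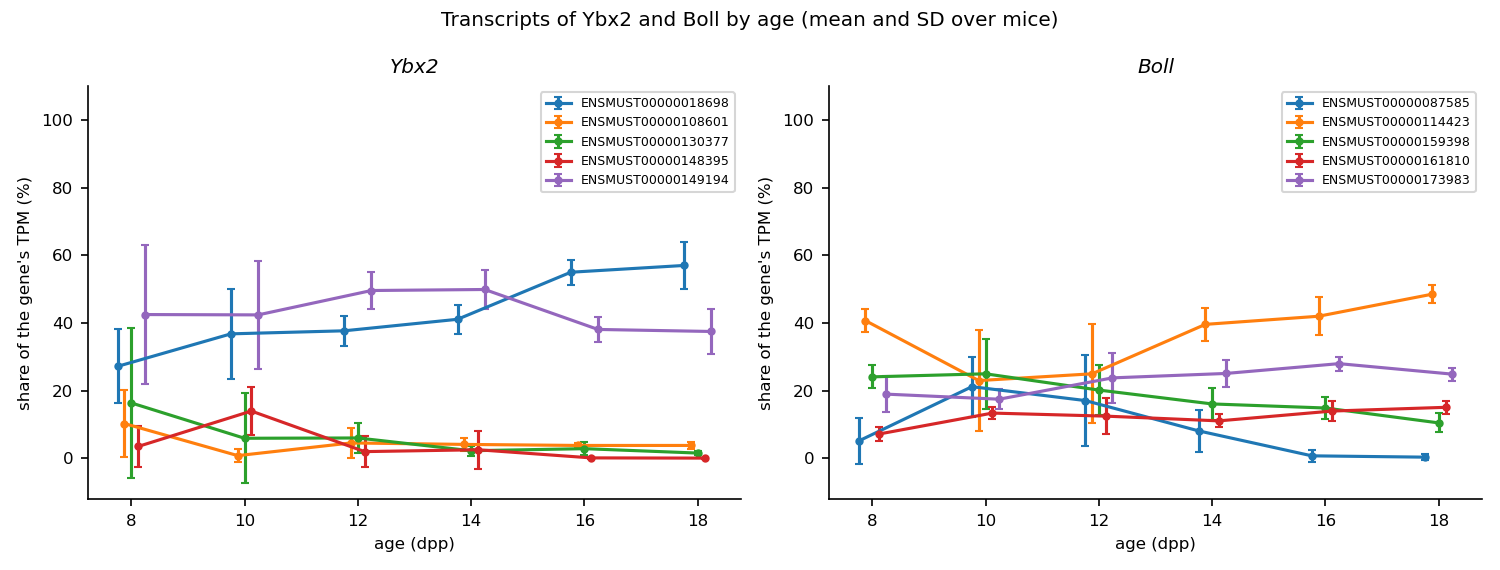
Share of the gene's TPM (%) held by each tested transcript of Ybx2 (left) and Boll (right) at each juvenile age; points are means and bars SD over 3 mice at 8 dpp and 5 at the other ages. ENSMUST00000018698 of Ybx2 moves from 27.2% at 8 dpp to 57.0% at 18 dpp, and ENSMUST00000114423 of Boll stands at 40.7% at 8 dpp, 23.0% at 10 dpp and 48.5% at 18 dpp.

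Marker genes were summed to describe the cells in the same samples. All 7 markers of spermatogonia fell from 8 to 18 dpp (median log2 fold change -1.24) and all 7 markers of prophase spermatocytes rose (1.90; all but Dmc1 with quantile scaling), with sums from 1089 to 1226 TPM down to 486 to 688 TPM and from 251 to 370.1 TPM up to 1445 to 1618 TPM. These shifts lie beside the risers and the fallers among the 10 genes, and their part in those results was not tested. In the adult samples the spermatogonial sum was 30.5 to 35.6 TPM, beside the low Dazl, Cpeb1, Elavl2 and Nanos3 there. None of the 7 markers was listed at 0 in all adult samples. The adult spermatocyte sum was 1440.0 to 1659 TPM, but its genes lay on both sides of 18 dpp. Dmc1 averaged 46.6 TPM at 18 dpp and 0.708 in the adult samples. Sycp1 (231 and 106 TPM), Sycp3 (502 and 375) and Hormad1 (291 and 189) were also lower in the adult samples. Spo11 (51.5 and 139), Mybl1 (47.7 and 83.0) and Piwil1 (354 and 634) were higher. The low adult Dazl and Cpeb1 thus lay beside low Dmc1 as well as low spermatogonial markers, and the part of either was not tested. The sum of 6 spermatid markers, 2.48 to 17 TPM from 8 to 18 dpp, was 872 to 1189 TPM in the adult samples. The higher adult Ybx2, Boll and Meioc lay beside this spermatid sum, and its part in them was not tested.

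The markers of Sertoli cells, the somatic cells of the tubule, were also high. Their sum over 8 genes was 6746 to 7619 TPM at 8 dpp, 5001 to 6891 at 16 dpp, 3269 to 4262 at 18 dpp and 293 to 433 TPM in the adult samples, most of it from Clu. Between 8 and 18 dpp 6 of the 8 fell and 2, Gata1 (log2 fold change 0.62) and Rhox5 (0.85), rose, with a median of -1.08. Musashi 1 is also known in Sertoli cells, and Msi1 fell over the same ages with a log2 fold change of -0.81. The part of the Sertoli signal in the values of Msi1 was not tested. None of the 8 markers was listed at 0 in all samples of a group.

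The other lists moved less uniformly. From 8 to 18 dpp 4 of 5 macrophage markers rose (summed 30.5 to 41.6 TPM at 8 dpp and 51.0 to 99.7 at 18 dpp). Of 5 Leydig cell markers 2 rose, and of 4 endothelial markers 1 rose and 1 fell. For 5 red blood cell markers limma called 0, also 0 at an unadjusted p under 0.05. Of 5 peritubular markers 1 fell and 4 were not called between these ages. Their sum was 1051 to 1160 TPM at 8 dpp, 1097 to 1879 at 14 dpp and 524 to 1034 at 18 dpp. All 5 differed among the 6 ages (limma adjusted p of 0.00516 or less), as did 77.6% of all genes. With quantile scaling 0 Leydig, 0 endothelial and 2 macrophage markers rose, and 2 peritubular markers fell. Of 6 spermatid markers only Spaca1 was above the filter, and it rose (log2 fold change 1.16).

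**Figure D5:**
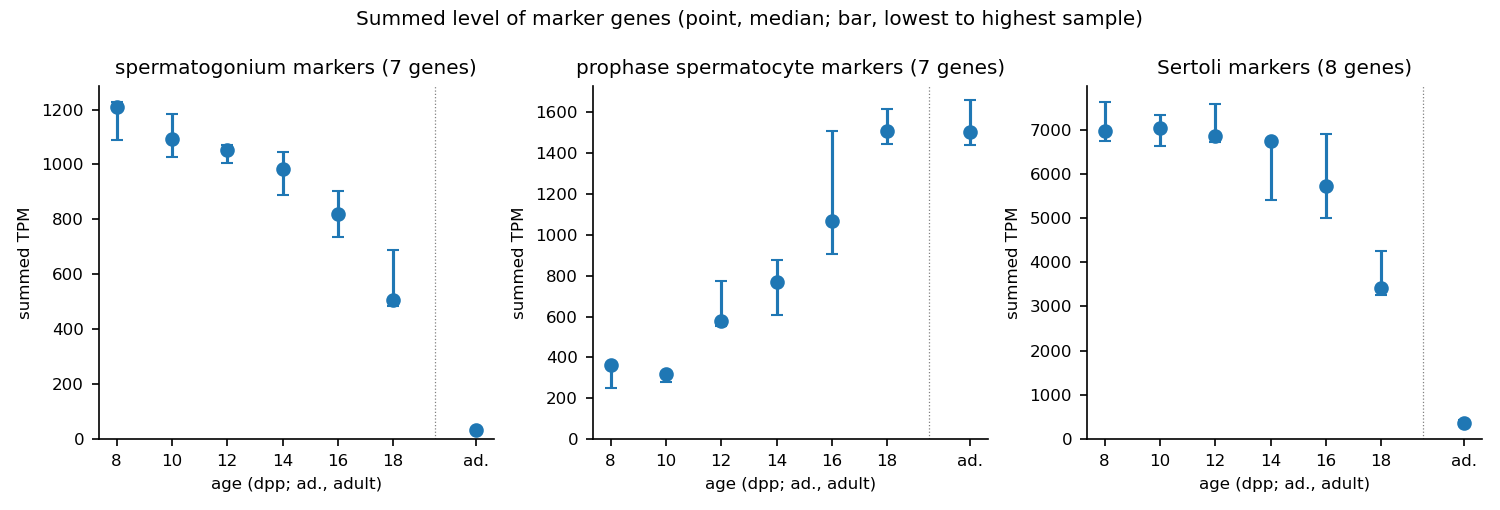
Summed TPM of the marker genes of spermatogonia, prophase spermatocytes and Sertoli cells at each age and in the adult samples (ad.); points are medians and bars run from the lowest to the highest sample. The spermatogonial and Sertoli sums are lowest and the spermatocyte sum highest among juvenile ages at 18 dpp.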

How the data were processed

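Poly-A RNA was sequenced from germ cells of 28 juvenile mice and 4 pools of adult spermatocytes. Per the labels and the study's methods, paired-end reads were aligned by the authors with Bowtie 1.0.0 and quantified with RSEM 1.2.8 on mm10 transcripts. The deposited transcript table and adult table hold TPM. The deposited juvenile gene table holds a score, exp(log2(TPM + 1)) - 1 with e as the base of exp, which was converted back to TPM; after conversion 20288 of 20368 genes differed by at most 0.2 TPM from the sum of their transcripts. TPM keeps no read counts, so depth is unknown and the precision rests on the spread between mice. Separate mice were the replicates, and the adult pools were not tested against them.

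The log2(TPM + 1) values of all 6 ages entered 1 limma model (limma 3.58.1, R 4.3.3), whose prior variance depended on mean expression. Genes were called at a p-value under 0.05 after Benjamini-Hochberg adjustment. The pseudocount of 1 makes fold changes of low genes smaller than those of TPM. Genes of at least 3 TPM in at least 1 mouse were tested. Transcript usage was tested with limma on percentages of the gene's TPM, for genes that averaged 3 TPM or more early and late, where 2 or more of their transcripts reached an average of 1 TPM in either group. On simulated data 86.5% of 200 genes shifted by 1 on the log2 scale between 8 and 18 dpp were recovered among 20368 genes.

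The 10 genes are given in full; of the lists, counts are given with up to 3 called genes of largest change, and others named were chosen after their values were seen. Members and lists were chosen with earlier results of these data known. Coordinates come from GENCODE M21 (GRCm38). Promoters were matched by symbol to RefSeq windows, found for 7 of the 10 genes. The alternatives were another pseudocount, other filters, other scalings, a constant prior variance, subsets of mice, a replicate block and each sample left out in turn. Columns with the authors' own assignments of genes to substages were not used. Levels, shares and figures were made in Python 3.11.15 (pandas 2.3.3, matplotlib 3.10.9).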

Additional observations from a re-analysis of the deposited data

Results flagged for a closer look

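In 60 groups of 4 or 5 samples, 10 genes at 5 ages and in the adult samples, 3 values lay far from the others of their group, where chance flags about 1 in 20 groups. Boll measured 336 TPM in adult sample 1, and 455 to 462 TPM in the other adult samples. Dnd1 measured 19.2 TPM in mouse 5 of 18 dpp, and 12.6 to 14.3 TPM in the other mice of that age. Nanos3 measured 0.28 TPM in adult sample 4 and was listed at 0 in the other adult samples. With the others tied at 0, any value above 0 would have been flagged, so the rate of 1 in 20 does not apply to it.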

How the results depend on the processing

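The numbers of the 10 genes called in each comparison stayed within 1.5 times their value in every alternative but 1: from 14 to 16 dpp between 2 and 5 genes were called when each mouse was left out in turn, the fewest without mouse 1 of 16 dpp. With a limit of 10 in place of 20 percentage points, 4 in place of 1 transcripts of the 10 genes changed in usage. The share of all transcripts at the limit of 10 points is not given, so the 4 cannot be set against transcripts at large. The fold changes of Cpeb1 and Dazl from 8 to 18 dpp, which were not called, changed direction in 3 settings each. For Cpeb1 the log2 fold change was -0.032 with quantile normalization, -0.067 among mice 1 to 3 of each age and -0.155 without mouse 2 of 8 dpp. For Dazl it was -0.089 among mice 1 to 3, -0.075 without mouse 2 of 8 dpp and -0.028 without mouse 5 of 18 dpp, and it was called with median-of-ratios scaling (0.229). Nanos3 was called with quantile normalization (-0.837) and without mouse 4 of 18 dpp (-0.701). Leaving out 1 mouse at a time gave -0.155 to 0.19 for Cpeb1 and -0.075 to 0.128 for Dazl. The cause was not tested. Over all genes, 245 were called from 8 to 10 dpp and 35 from 12 to 14 dpp, and over the alternatives 106 to 305 and 0 to 129. Scaling moved the median log2 fold change of all genes from 8 to 18 dpp from -0.094 to 0.049 (median-of-ratios) and -0.264 (quantile), with 46.7%, 55.9% and 37.7% of calls higher. Deviations from the age means of mice with the same number at different ages had a median correlation of 0.0147 (-0.248 to 0.253 over 57 pairs), so the numbers do not pair mice; with a replicate block 7 of the 10 genes were called from 8 to 18 dpp, and the counts of the other comparisons and of the transcripts were those without it. Leaving out any 1 of the 4 adult samples moves a mean by less than its SD whatever the values are. How stable the adult means are can therefore not be read from such a check. Depth is unknown, and levels near 0, as those of Nanos3, cannot be bounded.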
